A study of Mus musculus with 6 samples.

Results

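LSK cells are lineage-negative cells of the mouse bone marrow that are sorted for the surface proteins Sca1 and c-Kit. The data on them are 2 RNA-seq libraries, 1 per genotype, out of 6 samples and 9 libraries in the series. One library was labelled Mll4 deleted and came from MLL4f/f MxCre+ mice, and the other was labelled WT and came from WT MxCre+ littermates. Both groups thus carried MxCre, a Cre recombinase under the interferon-inducible Mx1 promoter, and both were given polyIC, the agent that switches it on. Mice of both groups were 2 months old, on a mixed 129/Sv and C57BL/6 background. About 50 cells per library were picked by hand after the sort and amplified by PCR over several rounds. Their growth duration is given as 0 days. The labels do not say how many mice gave the cells, and no second LSK library of either genotype was used here. The genes described are those at 50 reads per 1000000 (CPM) or more in both libraries, which were 1382 of 23282 counted genes (5.94%). MLL-AF9 cells, marrow cells transformed with a leukaemia fusion gene, serve only to show how far same-label libraries lay apart and which way single genes went. That set holds 2 libraries labelled Mll4 deleted (Mll4f/f with a Cre retrovirus) and 2 intact ones (empty vector). They were sorted 5 days after infection, with a growth duration of 14 days, and made with another kit.

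Mll4, also named Kmt2d, encodes a methyltransferase that marks histone H3 at lysine 4, chiefly at enhancers, and works in a complex with proteins such as Paxip1 and Kdm6a. The study asked what this enzyme does to the transcriptome of primary and transformed blood stem cells. The LSK fraction holds haematopoietic stem cells, which mostly rest outside the cell cycle, together with dividing multipotent progenitors. Immediate early genes such as Fos and Egr1 are transcribed within minutes of a stimulus, and replication genes such as Pcna are transcribed as cells enter S phase.

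Paired values below give the library labelled Mll4 deleted first and the WT library second. With 1 library per genotype there is no replicate check and no test, so differences are given as log2 ratios of CPM, labelled Mll4 deleted over WT. Their 95% exact binomial (Clopper-Pearson) intervals cover counting error only, because PCR copies the same molecule many times. The libraries held 25895041 and 26599883 counts, so that 50 CPM stood for 1295 and 1330 reads. A count of 0 allows up to 3 counts, which is 0.116 and 0.113 CPM. Folds given as at least a value rest on these 3 counts. They too cover counting error only, and are no bound on the number of molecules or cells. CPM are not divided by gene length, so their order over genes is not an order of transcript numbers.

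Kmt2d (NCBI gene 381022) went against the label: it had 359 counts (13.9 CPM) in the library labelled Mll4 deleted and 50 counts (1.88 CPM) in the WT library. The log2 ratio was 2.88 (interval 2.45 to 3.34). A count over the whole gene need not show the loss of a part of it, and which exons Cre removes is not given in the sources used here. The libraries are called by their labels for that reason. Ddx3y, on the Y chromosome, had 14.4 and 0.827 CPM and Xist, which coats the silenced X chromosome, 2.05 and 3.65 CPM. Sex is not given in the labels, and the part of sex in the ratios was not tested.

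Of the 5 markers that define LSK cells here, Cd34, Meis1 and Gata2 passed 50 CPM in both libraries, while Kit and Ly6a each passed in 1. Kit, the stem cell factor receptor used in the sort, stood at 102 and 46.8 CPM. Ly6a, which encodes the sort marker Sca1, stood at 28.2 and 80.2 CPM. The sort markers therefore pointed in opposite directions, Kit lower in the WT library and Ly6a lower in the library labelled Mll4 deleted. Cd34, a surface sialomucin of progenitors, had 292 and 298 CPM and a log2 ratio of −0.03 (interval −0.07 to 0.02). Meis1, a homeobox factor of stem cells, had 127 and 162 CPM (−0.35), and Gata2, a zinc finger factor needed by stem cells, had 146 and 269 CPM (−0.88). Markers of mature cells were low: of the genes fixed for neutrophils, monocytes and macrophages, B cells, and T and NK cells, none reached 50 CPM in both libraries. The neutrophil genes summed to 60.3 and 46.8 CPM, the monocyte genes to 61.3 and 63.0 CPM and the B cell genes to 39.1 and 5.86 CPM. Of the members found in the files, 11 of 15 neutrophil, 10 of 17 monocyte, 8 of 12 B cell and 10 of 17 T and NK genes were at 0 counts in both libraries. Defining markers such as Camp, S100a8, Csf1r, Adgre1, Cd79a, Pax5, Cd3e and Cd3g were among them. T and NK genes summed to 46.0 and 164 CPM, of which Lat, an adaptor also known from megakaryocytes and mast cells, gave 32.4 and 115 CPM. Cd79b, of the B cell receptor, had 35.5 and 0.752 CPM and Lyz2, lysozyme, 41.8 and 13.7 CPM. The part of other cells in the ratios was not tested, and fewer cells of a kind and less RNA per cell cannot be told apart in pooled cells.

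The shared transcriptome held 82.6% and 80.6% of all counts. It was 60.2% of the 2294 genes at 50 CPM or more in the library labelled Mll4 deleted and 58.3% of the 2372 in the WT library. The lowest value inside the limit was 50.0 CPM and the highest lower value outside it 49.9 CPM. Among the 10 genes with the most reads in both were Eef1a1, which brings aminoacyl-tRNA to the ribosome, Rplp0, Tpt1, Rpl4, Rpl5, Rpsa, Rack1, Rps2 and Rps6. Rplp0, a protein of the ribosomal stalk, had 23816 and 24188 CPM (log2 ratio −0.02). Eef1a1 had 35794 and 71595 CPM, just over 2-fold lower in the library labelled Mll4 deleted, and Rps6 had 20296 and 11677 CPM (0.80). Gapdh, a glycolytic enzyme often used as a reference, had 5979 and 5814 CPM (0.04). Levels of the 2 libraries over the shared genes gave a Spearman rank correlation of 0.66, as a description over genes that are not independent.

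Among the 1382 shared genes, 174 (12.6%) were at least 2-fold higher in the library labelled Mll4 deleted and 148 (10.7%) at least 2-fold lower. The other 1060 (76.7%) lay within 2-fold, and the median log2 ratio was 0.05. The quartiles of the log2 ratios were −0.45 and 0.60, with an SD over genes of 0.86. Counting error was small beside this, since the widest interval reached 0.11 to either side, but it says nothing of the difference between 2 draws of 50 cells. The full interval lay past 2-fold for 152 of the higher and 126 of the lower genes. At 4-fold, 18 genes were higher and 17 lower. Genes that were higher had a median length of 1829 bases in their longest coding transcript and those that were lower 2233 bases, against 2112 over all shared genes with a value. GC content was 53.5%, 52.1% and 52.7% in the same order. Over the shared genes with a value, the log2 ratio had a Spearman correlation of −0.13 with length and 0.06 with GC content. These are descriptions, and whether length plays a part in the ratios was not tested.

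**Figure D1:**
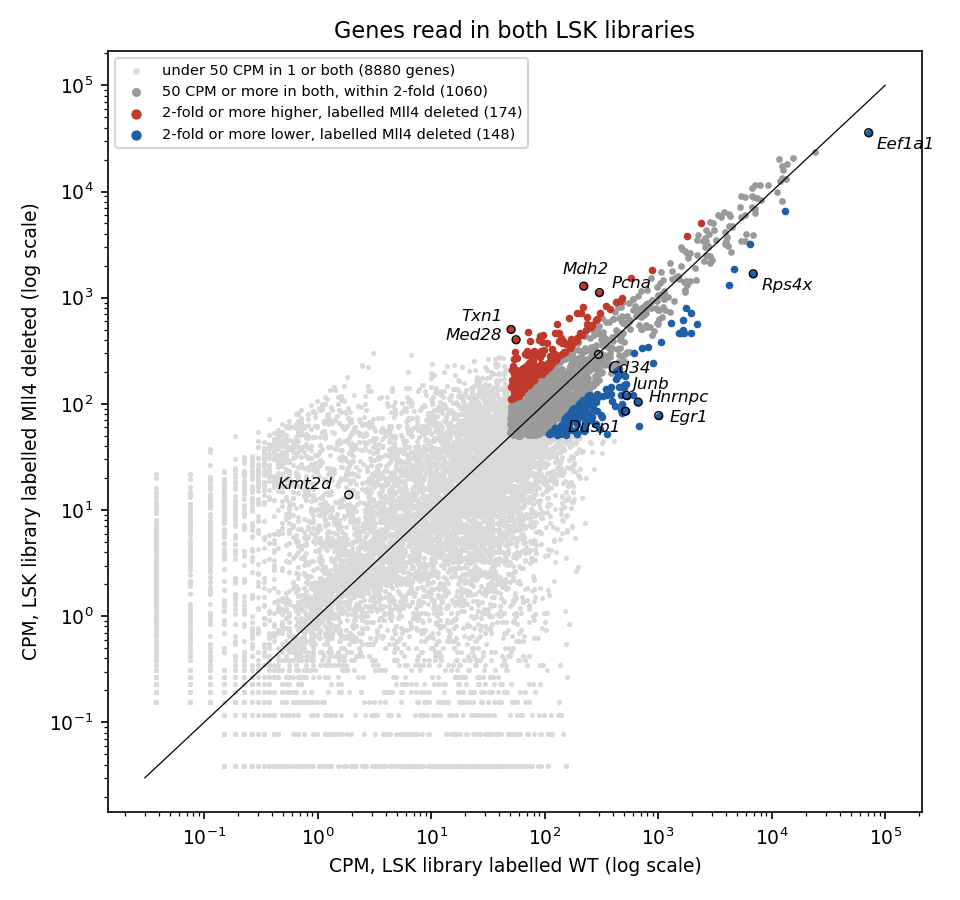
CPM of each gene read in both LSK libraries, WT on the x axis and labelled Mll4 deleted on the y axis, both on log scales, 1 point per gene. Red and blue points are the 174 and 148 shared genes at least 2-fold apart, grey points the 1060 within 2-fold, and the line marks equal values.

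Each MLL-AF9 pair with the same label belongs to 1 sample of the series and was made with another kit than the LSK libraries. Libraries with the same label lay much closer together in MLL-AF9 cells. There, 2.98% of 3922 genes at 50 CPM or more in both libraries labelled Mll4 deleted differed at least 2-fold, and 1.8% of 3389 genes in the intact pair, against 23.3% in the LSK pair. The SDs of log2 ratios were 0.41 and 0.33 there and 0.86 in LSK cells. The LSK share was 6.32% at a mean of 50 to 100 CPM, where both libraries must lie close to the minimum, 35.7% at 100 to 300 CPM, 26.3% at 300 to 1000 CPM and 15.4% from 1000 CPM. Genotype and library cannot be told apart in the LSK pair.

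**Figure D2:**
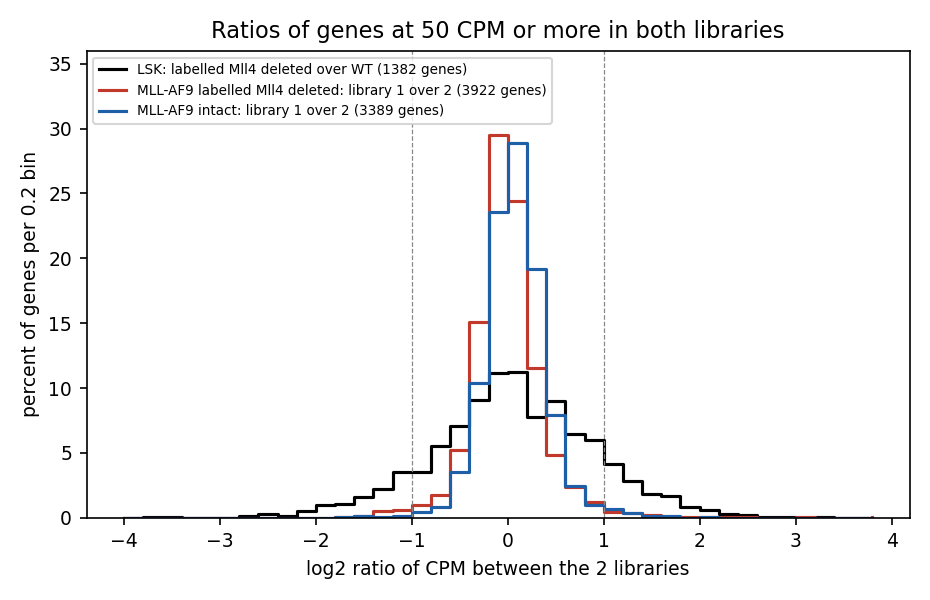
Percent of genes by log2 ratio of CPM between 2 libraries, in bins of 0.2, for genes at 50 CPM or more in both. The LSK pair (black, different labels) is wider than the 2 MLL-AF9 pairs with the same label (red, labelled Mll4 deleted; blue, intact), and 23.3%, 2.98% and 1.8% of genes lie beyond the dashed lines at 2-fold.

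Of 32 stem cell genes, 10 were shared; 1 was at least 2-fold higher in the library labelled Mll4 deleted and 2 were lower (10.0% and 20.0%, against 12.6% and 10.7% of all shared genes). Their median log2 ratio was −0.22, beside 0.05 over all shared genes. The shares of 12.6% and 10.7% are those to set beside the count of each list that follows. Adgrg1, an adhesion receptor of stem cells, had 804 and 966 CPM (−0.26). Txnip, an inhibitor of thioredoxin, had 277 and 375 CPM (−0.44). Both were lower in the library labelled Mll4 deleted by less than 2-fold. Hlf, a leucine zipper factor of stem cells, had 73.4 and 151 CPM (−1.05, interval −1.13 to −0.97). Pdzk1ip1, a membrane protein used to mark stem cells, had 75.4 and 261 CPM (−1.79). Ifitm3, an interferon-induced membrane protein, went the other way with 466 and 134 CPM (1.80). Further members were chosen after their values were seen. Procr, the protein C receptor, had 12.8 and 181 CPM, Fgd5 had 3.01 and 47.5 CPM, and Slamf1, which encodes CD150, had 0 and 799 counts, at least 259-fold lower in the library labelled Mll4 deleted. In the opposite direction, Socs2, a brake on cytokine signals, had 26.4 and 0.376 CPM (6.13), Bmi1, of a Polycomb complex, 1.85 and 0.414 CPM (2.16), Ndn 17.9 and 7.33 CPM (1.29) and Mllt3 8.73 and 3.98 CPM (1.13). Vwf, another gene of stem cells and megakaryocytes, was at 40.6 and 40.0 CPM.

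**Figure D3:**
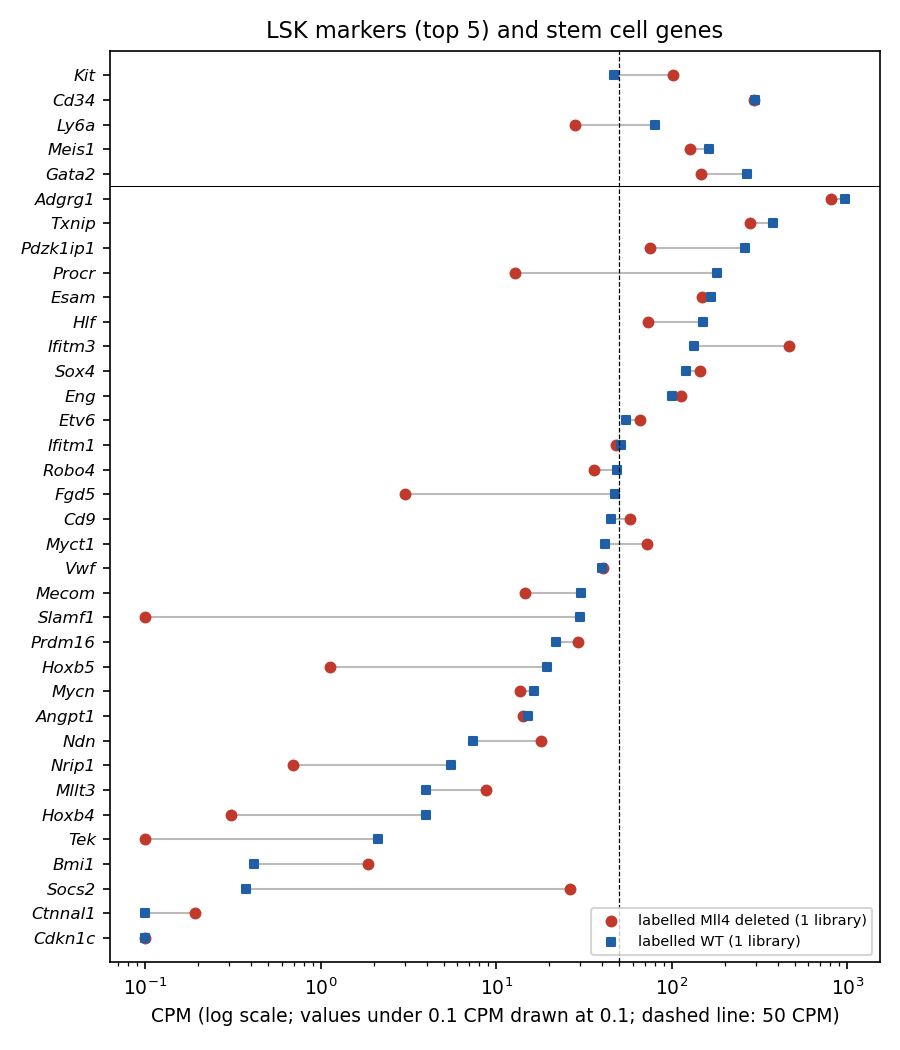
CPM on a log scale of the 5 LSK markers (above the line) and the stem cell genes (below it), 1 point per library, with 1 stem cell gene not drawn. Most stem cell genes over the 50 CPM line have their 2 points close together, while Procr, Fgd5 and Slamf1 lie far apart with the WT library higher and Socs2 lies far apart with the library labelled Mll4 deleted higher.

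Among 40 haematopoietic transcription factor genes, 10 were shared and 1, Egr1, lay past 2-fold (10.0% lower and none higher). Myc, a growth regulator, had 627 and 403 CPM (0.64), Nfe2, a factor of the megakaryocyte and erythroid lines, 329 and 437 CPM (−0.41), and Stat3 220 and 273 CPM (−0.31). Lmo2, a bridge protein of the stem cell factor complex, had 182 and 286 CPM (−0.65), and the homeobox gene Hhex had 93.8 and 53.1 CPM (0.82). Thus the 10 shared factors differed by less than 2-fold apart from Egr1. The minimum in both libraries leaves out factors that fell under it in 1 library. Among these, chosen after their values were seen, Tcf3 had 207 and 46.8 CPM (2.15) and Stat5a 25.9 and 89.2 CPM (−1.78). Gfi1b, a repressor of the erythroid and megakaryocyte lines chosen after its values were seen, had 0.850 and 165 CPM. Gata1, also of the erythroid list and chosen so, went the other way at 13.2 and 0.376 CPM (5.14). Over the 15 factor genes at 50 CPM or more in either library, 1 was at least 2-fold higher in the library labelled Mll4 deleted and 4 lower, where 28.2% and 30.3% of all such genes were. Of 30 cytokine receptor genes, 5 were shared and 1 lay past 2-fold, Csf2ra, the receptor chain for GM-CSF, with 182 and 82.2 CPM (1.15). Flt3, a receptor of multipotent progenitors, had 212 and 221 CPM (−0.06). Of 26 Hox genes and MLL targets, only Meis1 was shared. Hoxa9 stood at 7.99 and 8.68 CPM, under the minimum in both. Other Hoxa genes lay past 2-fold in opposite directions, Hoxa7 with 20.5 and 114 CPM (−2.47) and Hoxa3 with 52 and 19.8 CPM (1.39). These Hoxa genes were chosen after their values were seen.

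Of 20 myeloid priming and primary granule genes, 3 were shared, each with a ratio below 0 and 1 past 2-fold. Mpo, the peroxidase of primary granules, had 196 and 452 CPM (−1.21, interval −1.26 to −1.16), and Prtn3, a granule protease, had 97.2 and 121 CPM (−0.31). Members under the minimum in at least 1 library, chosen after their values were seen, went both ways. Irf8 had 24.4 and 0.301 CPM (6.34) and Cst3 6.22 and 156 CPM (−4.65). Over the 5 members at 50 CPM or more in either library, 0 were at least 2-fold higher and 3 lower, where 28.2% and 30.3% of all such genes were. The lymphoid priming genes had 4 shared members, none past 2-fold, among them Cd27, a receptor of the TNF family, at 341 and 274 CPM (0.31) and Lsp1 at 168 and 278 CPM (−0.73). Under the minimum, and chosen after their values were seen, Satb1 had 1.93 and 42.6 CPM (−4.46) and Il12a 15.9 and 0.263 CPM (5.92). Erythroid genes summed to 520.4 and 1882 CPM. Of these, Car2, a carbonic anhydrase, gave 469 and 1562 CPM (−1.74). Klf1, the master factor of red cells, had 0 and 2469 counts, at least 801-fold lower in the library labelled Mll4 deleted, and Car1 had 1 and 2851 counts. The beta globin gene Hbb-bs, chosen after its values were seen, went the other way at 34.6 and 0.414 CPM. Alas2, a haem synthesis gene of later red cells, was at 0 in both. Megakaryocyte genes summed to 632 and 939 CPM. Mast cell genes summed to 758 and 809 CPM, mostly from Srgn (467 and 495 CPM) and Gata2. Tpsb2, a mast cell tryptase, stood at 59.9 and 0.526 CPM, and its relatives Mcpt4 and Cma1, chosen after their values were seen, at 20.0 and 0.301 and at 9.00 and 0.0752 CPM. Hdc, the histidine decarboxylase of mast cells and basophils, also chosen so, went the other way with 0 and 663 counts, at least 215-fold lower in the library labelled Mll4 deleted. Fcer1a, the IgE receptor chain that defines mast cells, had 0.0772 and 0 CPM.

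Immediate early genes were lower in the library labelled Mll4 deleted for 5 of the 8 shared members (62.5%, against 10.7% of all shared genes) and higher for 1, with a median log2 ratio of −1.67. Egr1 (NCBI gene 13653), a zinc finger factor, had 77.6 and 1011 CPM, the lowest ratio among all shared genes (−3.70, interval −3.77 to −3.64). Dusp1, a phosphatase that switches off MAP kinases, had 85.2 and 516 CPM (−2.60), and Junb, a subunit of AP-1, had 119.7 and 528 CPM (−2.14). Fos, the partner subunit, had 461 and 1682 CPM (−1.87), and Ier2 had 382 and 1067 CPM (−1.48). All 5 were thus between 2.79-fold and 13.0-fold higher in the WT library. Zfp36, which speeds the decay of AU-rich messages, had 64.8 and 92.3 CPM (−0.51). Myc had a log2 ratio of 0.64, and Nfkbia, the inhibitor of NF-kB, had 294 and 124 CPM (1.24), the sole shared member at least 2-fold lower in the WT library. Below the minimum in at least 1 library, and chosen after their values were seen, Btg2 had 13.1 and 215 CPM, Jun 27.2 and 104 CPM and Klf2 0 and 81.5 CPM, while Fosb had 54.7 and 43.8 CPM.

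The 250 bases upstream of the annotated start are shown for a pair of these genes with matches to the cyclic AMP response element, from RefSeq (GRCm38.p6), 5′ to 3′ on the gene's strand, with matches in capitals. TGACGTCA is the full palindromic element and TGACGT its shorter form, which the full one contains. Fos lies at chr12:85473640-85473889 (plus strand) and Dusp1 at chr17:26508473-26508722 (minus strand).
Fos: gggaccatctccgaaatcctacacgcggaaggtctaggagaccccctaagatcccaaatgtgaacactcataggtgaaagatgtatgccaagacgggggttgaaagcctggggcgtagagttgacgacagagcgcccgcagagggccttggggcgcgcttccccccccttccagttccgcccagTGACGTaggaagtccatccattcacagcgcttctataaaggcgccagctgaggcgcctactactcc
Dusp1: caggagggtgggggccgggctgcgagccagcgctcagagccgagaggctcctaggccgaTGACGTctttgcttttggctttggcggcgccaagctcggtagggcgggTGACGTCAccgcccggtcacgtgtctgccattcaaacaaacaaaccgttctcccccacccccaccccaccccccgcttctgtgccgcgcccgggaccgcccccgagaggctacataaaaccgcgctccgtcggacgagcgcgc
Fos carries 1 TGACGT, and Dusp1 carries TGACGT and TGACGTCA. On either strand, TGACGT was in 10 of the 27 immediate early promoters in that table (37.0%) against 7.29% of all 27025 promoters of this length and 14.0% of the 1111 shared genes with a promoter in the table. TGACGTCA was in 3 of 27 (11.1%) against 1.77% and 3.6%, and the CArG box bound by serum response factor in 3 of 27 against 1.62% and 2.07%. A match describes the letters and is not a bound site.

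Replication genes went in both directions. Of 46, 15 were shared; 6 (40.0%, against 12.6% of all shared genes) were at least 2-fold higher in the library labelled Mll4 deleted and 2 (13.3%, against 10.7%) lower, with a median log2 ratio of 0.38. Pcna (NCBI gene 18538), the sliding clamp of DNA polymerase, had 1118 and 304 CPM (1.88, interval 1.84 to 1.91). Rfc2 and Rfc5, subunits of its clamp loader, had 309 and 54.7 CPM (2.50) and 189 and 59.2 CPM (1.68). These shared clamp and clamp loader genes were higher in the library labelled Mll4 deleted. Rfc1, the large subunit of the loader, was under the minimum in that library and went the other way at 19.1 and 67.1 CPM. Tk1, thymidine kinase, had 267 and 54.1 CPM (2.30), and Cdt1, which licenses origins, had 441 and 95.9 CPM (2.20). The genes of the MCM helicase, whose subunits form 1 ring, did not go together: Mcm6 had 389 and 134 CPM (1.54), Mcm3 142 and 505 CPM (−1.84), Mcm5 277 and 280.3 CPM (−0.02) and Mcm7 235 and 291 CPM (−0.31). Dut, which removes dUTP, was also lower with 72.7 and 229 CPM (−1.65).

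Mcm6 and Mcm5 belong to 1 complex, and their log2 ratios were 1.54 and −0.02. Among the shared replication genes with a promoter available, only these carry the E2F element TTTGGCGC. Mcm2, Mcm3 and Mcm7 of the same ring do not. The promoters of Mcm6 and Mcm5 are shown. They come from the same source and length, at chr1:128359706-128359955 (minus strand) and chr8:75109259-75109508 (plus strand), with the E2F element TTTGGCGC, read on either strand, and TGACGTCA in capitals.
Mcm6: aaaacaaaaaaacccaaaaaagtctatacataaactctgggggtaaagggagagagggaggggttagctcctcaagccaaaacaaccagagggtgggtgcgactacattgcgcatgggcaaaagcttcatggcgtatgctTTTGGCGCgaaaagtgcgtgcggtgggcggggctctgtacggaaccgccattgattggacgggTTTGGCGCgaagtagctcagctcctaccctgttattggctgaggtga
Mcm5: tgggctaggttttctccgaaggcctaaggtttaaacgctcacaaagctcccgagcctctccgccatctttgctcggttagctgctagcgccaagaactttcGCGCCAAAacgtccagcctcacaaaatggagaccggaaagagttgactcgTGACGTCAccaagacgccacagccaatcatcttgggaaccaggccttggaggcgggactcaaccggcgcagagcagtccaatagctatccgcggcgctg
Mcm6 carries TTTGGCGC at 2 places and Mcm5 at 1, on the opposite strand. Pcna, Tk1, Cdt1, Rfc5, Mcm3 and Dut, which all lay past 2-fold, carry no TTTGGCGC in the same window. Whether the element goes with the ratio was not tested. TTTGGCGC was in 3 of 37 replication gene promoters (8.11%), against 0.485% of all and 0.99% of those of shared genes. TTTCCCGC, another E2F form, was in 3 of 37 against 1.03% and 1.89%.

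Mitosis genes had 10 shared members of 46, of which 2 were at least 2-fold higher in the library labelled Mll4 deleted and none lower (20.0% and 0.0%), with a median of 0.21. With 10 members, these counts lie near the 12.6% and 10.7% of all shared genes. Aurkb, the kinase of the chromosomal passenger complex, had 208 and 51.4 CPM (2.02), and Ube2c, the ubiquitin-conjugating enzyme of the anaphase-promoting complex, 289.8 and 88.9 CPM (1.71). Stmn1, a microtubule-destabilising protein, had 2634 and 1803 CPM (0.55), and H2az1, a variant histone, 827 and 822 CPM (0.01). The kinase Cdk1 and topoisomerase gene Top2a, chosen after their values were seen, had 79 and 75 CPM (0.07) and 52.2 and 75 CPM (−0.52), both within 2-fold. Mki67, the proliferation antigen, was under the minimum at 13.3 and 41.3 CPM, and Cdc20 stood at 136 and 1.43 CPM, both also chosen so. The CCAAT motif was in 31 of 38 mitosis gene promoters (81.6%), against 37.5% of all and 44.2% of those of shared genes. It was not particular to them, with 14 of 15 MHC class I promoters (93.3%) and 22 of 37 replication gene promoters (59.5%). Its shares were 37.0% in immediate early and 39.5% in interferon response gene promoters. Among G1 genes, Cdk4 had 784 and 698 CPM (0.17) and Ccnd3, a D-type cyclin, 124 and 191 CPM (−0.62), and none of the 3 shared members lay past 2-fold. Cdkn1c, the CDK inhibitor of resting stem cells, had 0.0386 and 0 CPM.

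**Figure D4:**
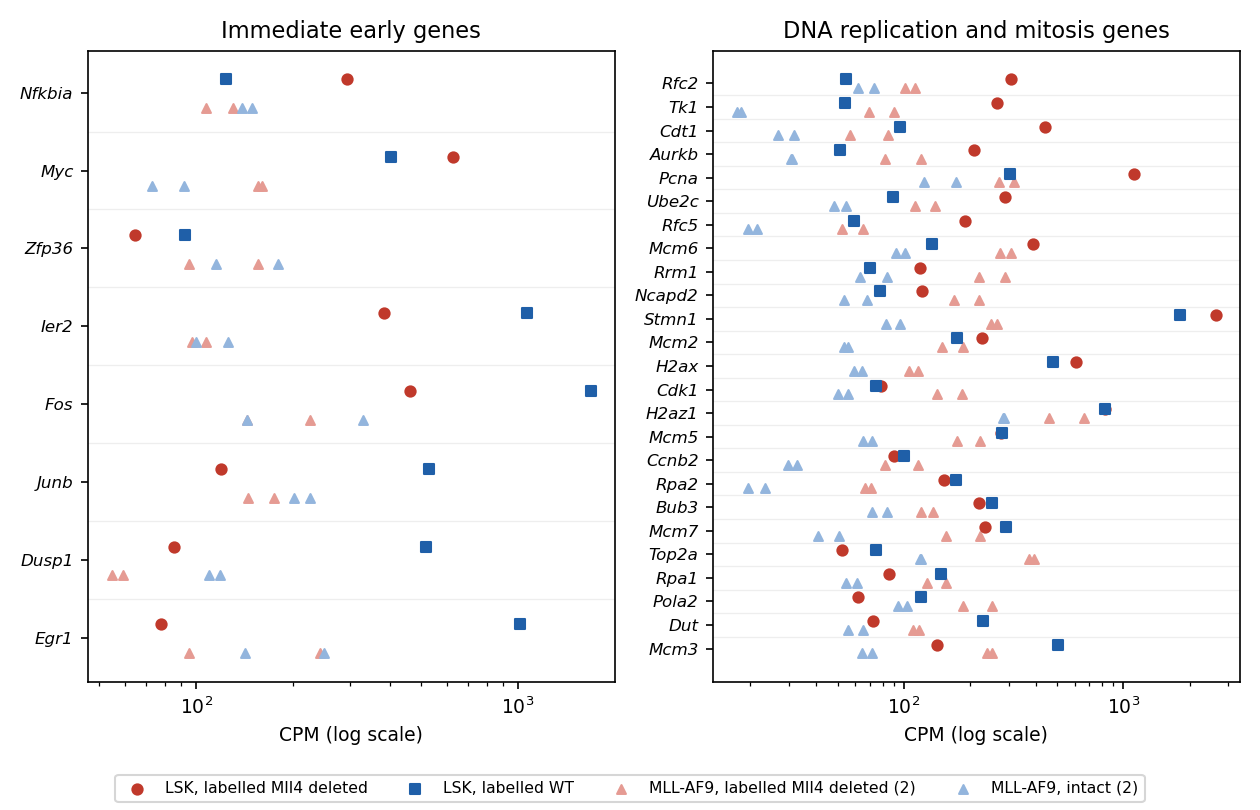
CPM on a log scale of the shared immediate early genes (left) and replication and mitosis genes (right) in the LSK libraries (circle, labelled Mll4 deleted; square, WT) and the 4 MLL-AF9 libraries (triangles). Egr1, Dusp1, Junb, Fos and Ier2 have the WT square far to the right in LSK cells, whereas Rfc2, Tk1, Cdt1, Aurkb and Pcna have the circle to the right.

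MHC class I genes were mostly higher in the library labelled Mll4 deleted by less than 2-fold. Of 17, 10 were shared, 8 of them with a ratio above 0, 2 at least 2-fold higher (20.0%, against 12.6%) and none 2-fold lower, with a median of 0.82. H2-K1, a classical heavy chain, had 6049 and 3352 CPM (0.85), and H2-D1 had 1752 and 1051 CPM (0.74). Tap1, a subunit of the peptide transporter, had 296 and 94.9 CPM (1.64), while B2m, the light chain, had 2481 and 2878 CPM (−0.21). Heavy chain genes are near-identical copies, and reads may have been split among them in a way the sources used here do not state. The 58 interferon response genes, described because both groups were given polyIC, had 8 shared members with a median of 0.00, 2 at least 2-fold higher and 1 lower (25% and 12.5%, against 12.6% and 10.7%). The median was −0.60 over the members with a mean of 1 CPM or more. Psmb8, an immunoproteasome subunit, had 573 and 1287 CPM (−1.17), Ly6e 1038 and 1132 CPM (−0.13) and Psmb10 277 and 342 CPM (−0.30). Mx1, whose promoter drives the Cre, and Ifit2 were at 0 counts in both libraries.

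Antioxidant genes held the highest ratio of all shared genes. Txn1 (NCBI gene 22166), thioredoxin, had 502 and 50.6 CPM (3.31, interval 3.23 to 3.39), with the WT value just over the minimum. The other 15 shared members lay within 2-fold, with a median of 0.29 over the 16, and of −0.02 over the members with a mean of 1 CPM or more. Fth1 and Ftl1, the ferritin chains, had 2551 and 2645 CPM (−0.05) and 1431 and 1909.6 CPM (−0.42), Gpx1 819 and 1113 CPM (−0.44), Sod1, superoxide dismutase, 735 and 418 CPM (0.81) and Cat, catalase, 59.4 and 109 CPM (−0.88). Heat shock genes had 18 shared members of 37, 1 at least 2-fold higher and 1 lower (5.56% each, against 12.6% and 10.7%), with a median of −0.25. The chaperone gene Hspa8 had 3433 and 5848 CPM (−0.77), Hsp90ab1 3101 and 4144 CPM (−0.42) and Hspd1, the mitochondrial chaperonin, 58.1 and 219 CPM (−1.91). Dnajb6, a cochaperone, was higher with 168 and 61.1 CPM (1.46). Among amino acid and unfolded protein stress genes, Atf4, the factor that drives that response, had 121 and 602 CPM (−2.31). The 8 shared members of that list had a median of 0.08, with 1 at least 2-fold higher and Atf4 lower (12.5% each), and of −0.04 over the members with a mean of 1 CPM or more. Slc7a11, a cystine transporter, had 670.4 and 478 CPM (0.49), Phgdh, of serine synthesis, 242 and 133 CPM (0.87) and Shmt2 328 and 115 CPM (1.52), while Ddit3, chosen after its values were seen, had 1 and 2474 counts.

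Oxidative phosphorylation genes had 38 shared members of 76, of which 9 (23.7%, against 12.6%) were at least 2-fold higher in the library labelled Mll4 deleted and 3 (7.89%, against 10.7%) lower, with a median of 0.44. Over the 57 members at 50 CPM or more in either library, 15 were at least 2-fold higher and 10 lower. Of all such genes, 28.2% and 30.3% were, so the higher share did not exceed that of all genes there. Within ATP synthase, the genes of the catalytic core Atp5b and Atp5a1 had 764 and 1140 CPM (−0.58) and 528 and 843 CPM (−0.67), while Atp5g3, of the membrane ring, had 314 and 92.3 CPM (1.77). Uqcrc2, a core protein of complex III, had 51.6 and 355 CPM (−2.78), and Ndufv1, of complex I, 96.9 and 250.3 CPM (−1.37). Subunits of the same complexes therefore lay on both sides. Outside the list, Mdh2, mitochondrial malate dehydrogenase, had 1284 and 221 CPM (2.54) and Suclg1, of succinyl-CoA ligase, 559 and 129 CPM (2.11), both among the 15 highest ratios. Of 22 glycolysis genes, 9 were shared and 1 was lower, Tpi1 at 212 and 454 CPM (−1.10), with a median of −0.15. Ldha, lactate dehydrogenase, had 578 and 972 CPM (−0.75).

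Ribosomal protein genes took 37.1% and 33.7% of all counts, and 75 of 79 were shared. None was at least 2-fold higher in the library labelled Mll4 deleted, 12 (16.0%, against 10.7%) were lower, and the median was 0.05. The lower ones included Rps25 at 469.9 and 1939.7 CPM (−2.05), Rps4x at 1679.7 and 6883 CPM (−2.03) and Rpl21 at 570.5 and 2193 CPM (−1.94). The log2 ratios of the shared members ran from −2.05 to 0.93. Many of these genes, and Eef1a1, have near-identical pseudogene copies, so their values are uncertain. Translation factor genes had 31 shared members of 37, 4 at least 2-fold higher and 5 lower (12.9% and 16.1%, against 12.6% and 10.7%), with a median of −0.12 that became 0.06 under upper-quartile scaling. Within initiation factor 3, Eif3i had 1548 and 571 CPM (1.44) and Eif3e 150.2 and 502 CPM (−1.74), so that genes of 1 complex again lay past 2-fold on both sides. Proteasome genes also lay on both sides, with 16 shared of 31, 1 higher (Psmc3, 263 and 77.3 CPM, 1.76) and 2 lower (Psmb4, 121 and 352 CPM, −1.54, and Psmd6, 61.7 and 152 CPM, −1.31). Ribosome biogenesis genes had 8 shared members of 29 found in the files, and 1, the pseudouridine synthase gene Dkc1, was lower with 52.2 and 138 CPM (−1.40). Npm1, nucleophosmin, had 2276 and 2954 CPM (−0.38).

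**Figure D5:**
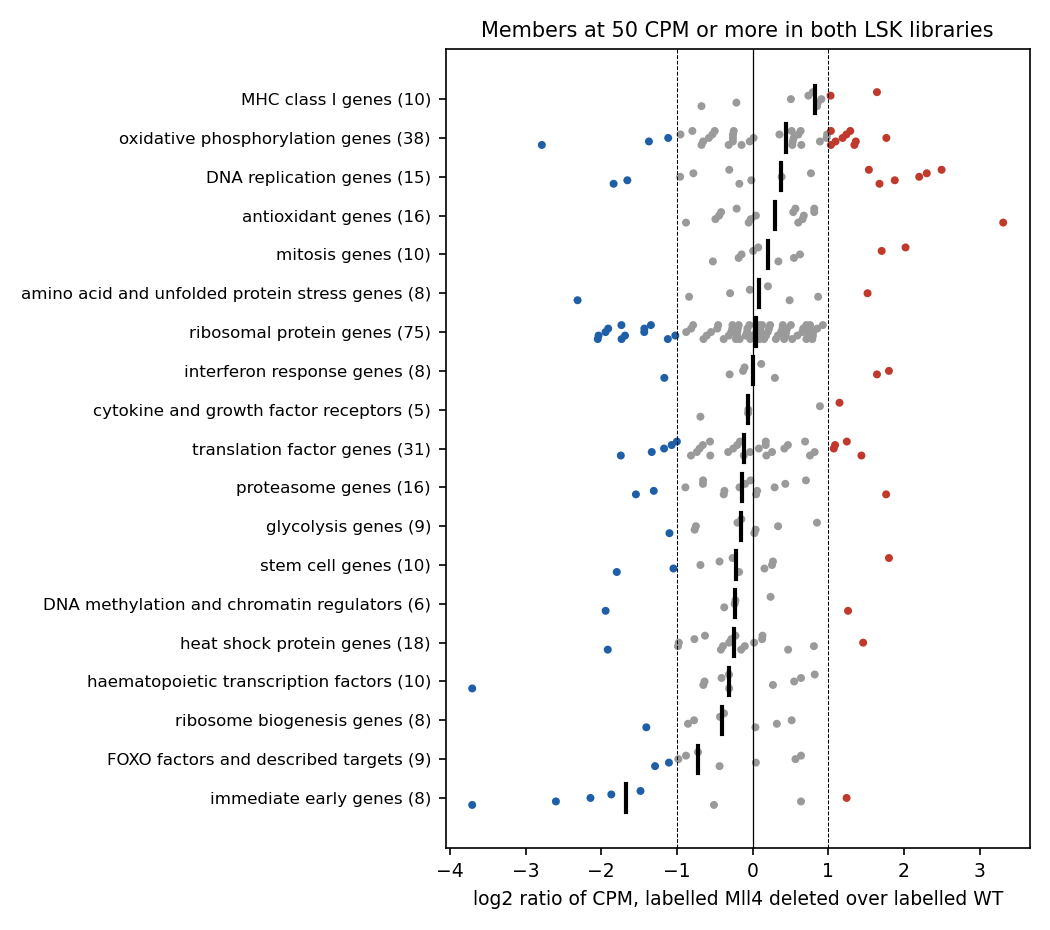
Log2 ratio of CPM (labelled Mll4 deleted over WT) of each shared member of the gene lists with 5 or more shared members, 1 point per gene, with the list's median as a black bar and the number of shared members in brackets. Immediate early genes have the lowest median (−1.67) and MHC class I genes the highest (0.82), and many lists have points past 2-fold (dashed lines) on both sides.

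Genes of the Mll4 complex and its relatives mostly fell under 50 CPM in at least 1 library. Over the 12 at 50 CPM or more in either library, 4 were at least 2-fold higher and 4 lower. Of all such genes, 28.2% and 30.3% were. Of 20 found in the files, Cxxc1, Pagr1a and Dpy30 were shared, each within 2-fold. Pagr1a, a partner found with Mll4, had 65.7 and 59.2 CPM (0.15), and Dpy30, a core subunit of all such complexes, 52.6 and 83.9 CPM (−0.67). Kmt2c, the closest relative of Kmt2d, had 41.6 and 76.1 CPM (−0.87), Kmt2a, or MLL1, 31.5 and 105 CPM (−1.73) and Kmt2b 95.3 and 20.8 CPM (2.20). Kmt2a and Kmt2b were thus each past 2-fold, in opposite directions. Among other chromatin regulators, the remodelling ATPases Chd4 and Smarca4 also differed in direction, with 122 and 469.6 CPM (−1.94) and 233 and 97.1 CPM (1.26), while Dnmt1, the maintenance DNA methyltransferase, had 267 and 312 CPM (−0.23). Of the FOXO factors, Foxo3 was at 0 counts in both, Foxo1 had 10 and 323 counts and Foxo4 3 and 32 counts. The list of 46 FOXO factors and described targets had 9 shared members, all of them targets, none at least 2-fold higher and 2 lower (22.2%, against 10.7%), with a median of −0.72. Over the 13 members at 50 CPM or more in either library, 2 were at least 2-fold higher and 4 lower, where 28.2% and 30.3% of all such genes were. The lower share there lay near that of all genes. The lower shared ones were Map1lc3b, an autophagosome protein, at 173 and 422 CPM (−1.29) and Ddb1 at 104 and 223 CPM (−1.11). Gabarapl1, a relative of Map1lc3b, had 194 and 383 CPM (−0.98). Trp53 was the sole shared member of 34 p53 genes, at 295 and 287 CPM (0.04). The 57 DNA repair and checkpoint genes had 3 shared members, 1 higher and 1 lower: Parp1, which senses strand breaks, had 188 and 62 CPM (1.60), and Ddb1 is given above. Over the 15 of them at 50 CPM or more in either library, 4 were at least 2-fold higher and 7 lower, against 28.2% and 30.3% of all such genes. Both shared apoptosis genes, Diablo and Cflar, lay within 2-fold.

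Outside these lists, the highest ratios belonged to genes of varied roles. Med28, a Mediator subunit, had 402 and 56 CPM (2.84), Qdpr, which recycles tetrahydrobiopterin, 477 and 71.7 CPM (2.73) and Anxa5, a phosphatidylserine-binding annexin, 393 and 74 CPM (2.41). Gng10, a G protein subunit, Sptssa, of sphingolipid synthesis, Cacybp, Napa, of vesicle fusion, Lancl1 and Mapk14, the kinase p38 alpha, completed the 15 highest, all at least 4.33-fold higher. The lowest were led, after Egr1, by H1f2, a linker histone, at 61.7 and 675 CPM (−3.45), Hnrnpc, an RNA-binding protein, at 104 and 667 CPM (−2.68) and Lgals9, galectin 9, at 82.4 and 478 CPM (−2.54). Npc2, of lysosomal cholesterol export, Eif4a3, of the exon junction complex, Prelid1, Ctdsp2, Ddx17, an RNA helicase, and Iqgap1, a scaffold protein, were all at least 4.13-fold lower.

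Many genes at 50 CPM or more in 1 library fell under the minimum in the other. Of the 3284 genes at 50 CPM or more in either, 927 (28.2%) were at least 2-fold higher and 996 (30.3%) at least 2-fold lower in the library labelled Mll4 deleted. In the WT library, 102 genes of 2372 (4.3%) reached 50 CPM with 3 counts or fewer in the other, and 52 of them had 0 counts there. They were led by Ubr4, a ubiquitin ligase, with 1 and 4081 counts, Urod, of haem synthesis, with 1 and 4064 counts, Fkbp5, a cochaperone of steroid receptors, with 2 and 3839 counts, and Coq6, of ubiquinone synthesis, with 3 and 3708 counts. Acss2, acetyl-CoA synthetase, and Golm1, a Golgi protein, had 0 counts in the library labelled Mll4 deleted and were at least 1150-fold and 988-fold lower there. In the opposite direction the count was 0 of 2294 genes (0.0%). There the lowest WT level was 0.519% of the level in the library labelled Mll4 deleted, and 102 genes had a WT level between 0.5% and 2% of it. Whether reads of 1 library were counted in the other was not tested. Low WT levels of genes well read in the other library, such as Cdc20, Tpsb2, Mcpt4, Cma1, Hbb-bs, Socs2, Irf8 and Il12a, are uncertain in that respect. So are the counts of 102 and 0. The gene with the most reads in the library labelled Mll4 deleted among those at 3 counts or fewer in the WT library was Sema4g, a semaphorin, with 977 and 3 counts, under the minimum at 37.7 CPM. Ubr4 was read at 167 and 158 CPM in the MLL-AF9 libraries labelled Mll4 deleted and 193 and 163 CPM in the intact ones.

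The same genes were set beside the MLL-AF9 cells, which share no library with the LSK pair. Of the 174 genes higher in LSK cells, 112 (64.4%) were higher in both MLL-AF9 libraries labelled Mll4 deleted than in both intact ones, and of the 148 lower genes 82 (55.4%) were, against 64.0% of all 1382 shared genes. The reverse, lower in both, held for 25 (14.4%) and 24 (16.2%), against 9.33%. With TMM scaling, the higher shares were 42.0% and 47.3% against 47.5%, and the lower shares 24.7% and 28.4% against 19.8%. The higher shares of both LSK sets thus lay near or below that of all shared genes under both scalings. Pcna stood at 270.2 and 319 CPM in the MLL-AF9 libraries labelled Mll4 deleted and 124 and 173 CPM in the intact ones, Tk1 at 69.6 and 90.3 and 18.1 and 17.4 CPM, and Aurkb at 82.1 and 119.7 and 30.7 and 31 CPM, each without overlap. Egr1 stood at 242 and 94.9 and 142 and 249 CPM and overlapped, and Dusp1, at 54.8 and 59.3 and 119 and 109.9 CPM, did not. Txn1 stood at 365 and 452 and 303 and 326 CPM there, without overlap by total counts but with overlap under TMM scaling.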

How the data were processed

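The deposited values are raw counts of reads for each NCBI gene number. TopHat2 2.0.11, Bowtie 0.12.8 and genome build mm9 are named in the submitters' processing notes. How reads were assigned to genes is not given in the sources used here, nor are the annotation and the strand setting, and overlapping or near-identical genes may share reads. Per the labels' protocols, LSK cDNA was made from lysates of about 50 cells and amplified by PCR, and no molecular identifiers are described. Amplification can add spread that counting intervals do not cover. Names came from the RefSeq table of GRCm38.p6 for 23185 of 23282 gene numbers, and the 97 without a name took 0.0427% and 0.0373% of LSK counts. The promoters are in GRCm38.p6 coordinates of that table, not in mm9.

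CPM were counts per 1000000 of the library's total, computed in Python 3.11.15 with pandas 2.3.3, and intervals with scipy 1.17.1, checked on simulated counts. Ratios with 1 to 3 counts in a library carry their interval, and a count of 0 gives a bound against 3 counts, for counting error only. Scaling factors for alternatives came from edgeR 4.0.16 in R 4.3.3. No test was run, since each genotype has 1 library. Transcript lengths were those of GENCODE M21.

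Named genes were fixed markers and Kmt2, Foxo and sex-linked genes, the 10 with the most reads in both libraries, the 15 highest and 15 lowest ratios, the 10 per direction read in 1 library alone, and 3 by level and 3 by ratio in each of 37 lists. Other members named to account for a list, or beside a list's counts, were chosen after their values were seen. The genes and lists were chosen with earlier results of these data known. The libraries with FOXO3 or its empty vector were not used here, and a few genes are not reported here by name.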

Additional observations from a re-analysis of the deposited data

Results flagged for a closer look

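Some named genes past 2-fold in the LSK pair lay on the opposite side in MLL-AF9 cells, with no overlap between the 2 libraries labelled Mll4 deleted and the 2 intact ones under total-count and TMM scaling alike. Among the 148 genes 2-fold lower in LSK cells, 70 (47.3%) were higher in MLL-AF9 cells by that measure, against 47.5% of all 1382 shared genes, and among the 174 higher ones 25 (14.4%) were lower, against 9.33%. The first share lay near that of all shared genes. The difference between the cell types was not tested, and the LSK side rests on 1 library per genotype. Values are log2 ratios of CPM, labelled Mll4 deleted over WT or intact, in LSK cells first and in MLL-AF9 cells second. Mpo had −1.21 and 2.20; its MLL-AF9 levels were 5124 and 5729 CPM (labelled Mll4 deleted) against 822 and 1533 CPM (intact). Csf2ra had 1.15 and −0.53, H2-T23 1.03 and −0.33, Nfkbia 1.24 and −0.28, and Sptssa 2.25 and −0.56; these 4 were higher in LSK cells and lower in MLL-AF9 cells. The other 18 of the 22, Mpo among them, were lower in LSK cells and higher in MLL-AF9 cells. The replication genes Mcm3 and Dut had −1.84 and 1.85, and −1.65 and 0.92. Among mitochondrial and metabolic genes, Uqcrc2 had −2.78 and 0.57, Ndufv1 −1.37 and 0.79, Hspd1 −1.91 and 1.01, Prelid1 −2.27 and 0.57, and Tpi1 −1.10 and 1.03. Among genes of ribosomes and translation, Rps25 had −2.05 and 0.52, Rps4x −2.03 and 0.62, Eif3e −1.74 and 0.47, Eif4b −1.33 and 0.53, and Dkc1 −1.40 and 1.30. Hnrnpc had −2.68 and 0.43, and Eif4a3, which binds spliced messages, −2.41 and 0.77. The proteasome genes Psmb4 and Psmd6 had −1.54 and 0.66, and −1.31 and 0.51. Ddb1, of nucleotide excision repair, had −1.11 and 0.79.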

How the results depend on the processing

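No paired analysis was possible because each LSK genotype has 1 library and the labels carry no replicate numbers that link the genotypes. With a minimum of 20 CPM, 2872 genes were shared, 511 at least 2-fold higher in the library labelled Mll4 deleted and 478 lower, and 34.4% of the shared genes lay past 2-fold. With 100 CPM, 664 were shared, 65 higher and 56 lower (18.2%). At 4-fold, 18 were higher and 17 lower, and with no minimum 2592 and 2590. Genes over the minimum in 1 library and at 3 counts or fewer in the other numbered 8 (labelled Mll4 deleted) and 378 (WT) at 20 CPM, and 16 (WT) at 100 CPM. At 50 CPM, 60 genes of the library labelled Mll4 deleted lay under 1 CPM in the WT library and 149 of the WT library in the other, and 0 and 52 were at 0 counts there. TMM scaling of the MLL-AF9 libraries left 73 LSK-higher genes higher and 43 lower, and 42 LSK-lower genes lower. Leaving out each MLL-AF9 library in turn gave 27 to 43 for that last count by total counts, against 24, with 37 without the first library labelled Mll4 deleted and 43 without the second intact one. TMM, RLE and upper-quartile scaling moved LSK log2 ratios of named genes by −0.04 to 0.18, and 92 to 97 of 97 stayed past 2-fold. Upper-quartile scaling put the median of all shared genes at 0.18, against 0.05, and those of translation factor, proteasome and cytokine receptor genes at 0.06, 0.04 and 0.12, against −0.12, −0.14 and −0.06. The medians of the translation factor, proteasome and cytokine receptor lists thus changed sign. Named genes past 2-fold kept their direction, since shifts of −0.04 to 0.18 are smaller than their ratios. The counts of genes carry no direction that could reverse. With list members at a mean of 1 CPM or more, 24 of 32 medians kept their sign. Those of mast cell (−0.48 to 1.47), stromal (0.13 to −0.02), DNA repair (0.34 to −0.09), antioxidant (0.29 to −0.02), stress (0.08 to −0.04) and Mll4 complex genes (0.15 to −0.08) changed it; those of interferon (now −0.60) and lymphoid priming genes had been 0.00. Counting error of reads reached at most 0.11 to either side on the log2 scale for shared genes. It does not cover amplification or the draw of about 50 cells, so the ratios are less exact than that. The limit on all ratios is 1 library per genotype.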

Other observations

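The lowest reading of a gene differed between the LSK libraries. Of 2294 genes at 50 CPM or more in the library labelled Mll4 deleted, none had a WT level under 0.519% of that level, and 102 had one between 0.5% and 2%, with a median of 1.14%. In the opposite direction, 123 of 2372 genes had under 0.5% and 47 had between 0.5% and 2%. Cdc20, the activator of the anaphase-promoting complex, had 3514 and 38 counts and Tpsb2 1550 and 14 counts, while Klf1 had 0 and 2469 and Acss2 0 and 3544. In the MLL-AF9 pairs with the same label, 0 genes at 50 CPM or more were at 3 counts or fewer in the other library. Whether reads of 1 library were counted in the other was not tested.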
